A study of Arabidopsis thaliana with 8 samples.

Results

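The transcripts described here were higher in the systemic leaves of wounded Arabidopsis thaliana plants than in control leaves, and had at least 75% of that log2 difference in a mutant line. The members were chosen by their measured responses. They are probe sets with a wild-type difference of at least 1 on the log2 scale (systemic minus control, means of 2 arrays) and both wild-type systemic arrays above both control arrays. Their dTLec difference also had to be at least 75% of the wild-type one. This ratio of log2 differences is called the kept share. Of 22746 probe sets tested, 509 met the wild-type conditions and 91 of these also the kept share. Of the 91, 10 are not described here, since the rule leaves them out by name: LTI30, COR15A, COR47, BCAT4, GH3.3, AT5G47330, AT5G55050, AT3G47380, UGT87A2 and XTH32. The 81 that remain are 16.6% of the 489 wild-type-raised probe sets left after the same names were removed. The platform annotation gives 1 gene for 31 of the 81, several for 4 and none for 46. No member was removed by a filter on low values.

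The samples were leaves of 5-week-old plants of ecotype Col-0, wild type or carrying the SALK__132166 insertion (dTLec1-1, called dTLec here), grown at 21 °C in a day of 10 h light and 14 h dark after 2 days in the cold (4 °C) and dark. Some leaves of each rosette were wounded by squeezing the midvein with tweezers. Control leaves and systemic leaves (unwounded leaves of wounded plants, in usual terms) were sampled 2 h after that. The 4 groups (wild-type control, wild-type systemic, dTLec control and dTLec systemic) had 2 Affymetrix ATH1 arrays each, and dTLec was represented by 1 line. The labels do not say which gene the insertion disrupts, whether control leaves came from separate unwounded plants, or whether replicates came from separate plants, so the spread between arrays may be technical.

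Array medians over all probe sets lay between 5.82 and 5.86, and replicate arrays correlated with r between 0.992 and 0.996 across probe sets. Few listed markers were measured by name: 2 of 11 for leaf mesophyll, 1 of 5 for guard cells and 1 of 5 for roots. The 2 leaf mesophyll markers were abundant on every array. LHCB4.2, an antenna protein of photosystem II, read between 13.57 and 13.88 and RCA, Rubisco activase, between 13.57 and 13.73. PYK10, a β-glucosidase of roots, read between 4.22 and 4.33. FAMA, a guard cell transcription factor, read between 6.06 and 6.66. In a leaf, more cells of a type and more transcript per cell cannot be told apart.

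Crushing a leaf sets off electrical, calcium and hydraulic signals that travel through the veins to undamaged leaves. Jasmonate builds up there, JAZ repressors are degraded, and MYC transcription factors switch on genes for defence proteins, protease inhibitors and defence metabolites. Abscisic acid, reactive oxygen and sugar signals act beside jasmonate, and many wound-responsive genes also respond to cold, drought or osmotic stress.

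Across the 81 members the wild-type log2 difference ran from 1.03 to 4.89 with a median of 1.58, which is 2.99-fold. In dTLec it ran from 0.82 to 4.00 with a median of 1.41, or 2.65-fold. The kept share ran from 75.7% to 134% with a median of 82.6%, and 49 members lay under 85%. In 11 members it was at least 100%. Most members thus had a somewhat smaller difference in dTLec, and 65 of 81 still reached a log2 difference of 1 there. These values chose the members, so they are a description and carry no test. For the same reason nothing is read from the 72 members called in the wild-type comparison (limma, adjusted p under 0.05, 5.91% of all probe sets called higher) or from the 31 called in dTLec (0.488% called higher).

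**Figure D1:**
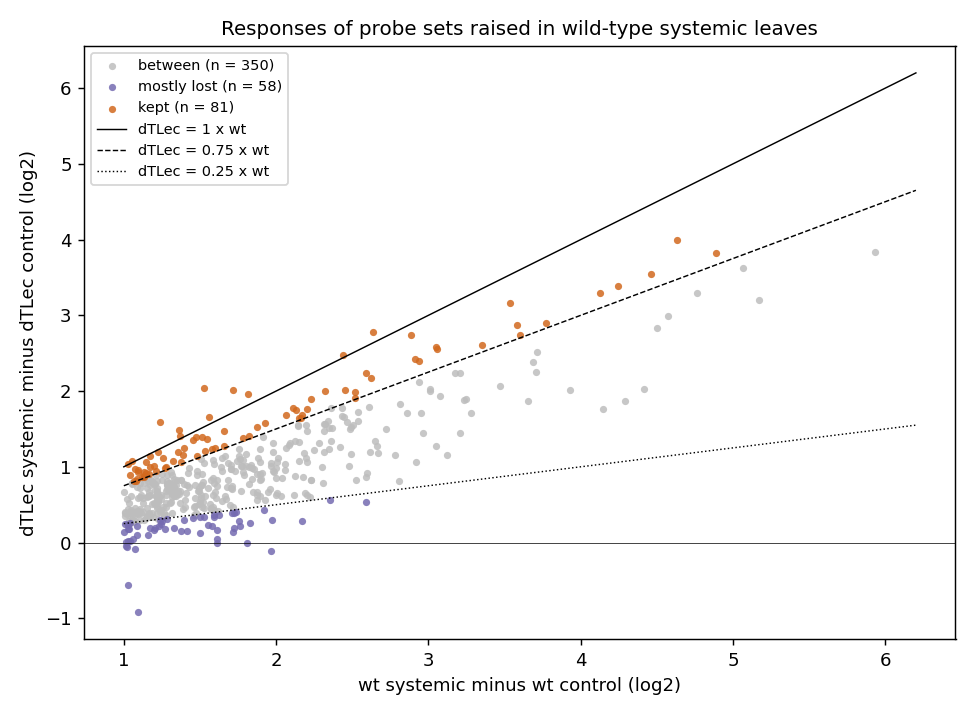
Systemic minus control difference (log2) in dTLec against that in wild type for 489 probe sets raised in wild-type systemic leaves, with lines at 1, 0.75 and 0.25 times the wild-type difference. The 81 members (kept) lie above the 0.75 line, 58 probe sets lie below the 0.25 line (mostly lost) and 350 lie between.

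The arrays of a group were not equal for these transcripts. Wild-type control replicate 1 read higher than replicate 2 in 74 of 81 members, with a median difference of 0.54. In dTLec systemic leaves replicate 2 read higher than replicate 1 in 77 of 81, and the median of replicate 1 minus replicate 2 was −0.52. Over all probe sets tested, wild-type control replicate 1 was the higher in 51.0% and dTLec systemic replicate 2 the higher in 50.1%. In the deposited values the replicate 1 and replicate 2 means over the 4 groups are equal, so the replicate differences of the 4 groups sum to 0 and are not independent of each other. The same differences were seen beyond the members, since among the 350 wild-type-raised probe sets with kept shares between 25% and 75%, wild-type control replicate 1 was the higher in 88.6% and dTLec systemic replicate 2 in 89.4%. The medians over the members were 6.94 and 6.45 on the wild-type control arrays, 8.73 and 8.78 on the wild-type systemic arrays, 6.58 and 6.40 on the dTLec control arrays, and 8.15 and 8.61 on the dTLec systemic arrays. Each systemic array therefore had a higher median over the members than any control array, and dTLec systemic replicate 1 was the lowest of the systemic arrays. In all 81 members both dTLec systemic arrays lay above both dTLec control arrays, as they did in 21.7% of all probe sets. The dTLec contrast is part of the rule, so nothing is read from that count.

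**Figure D2:**
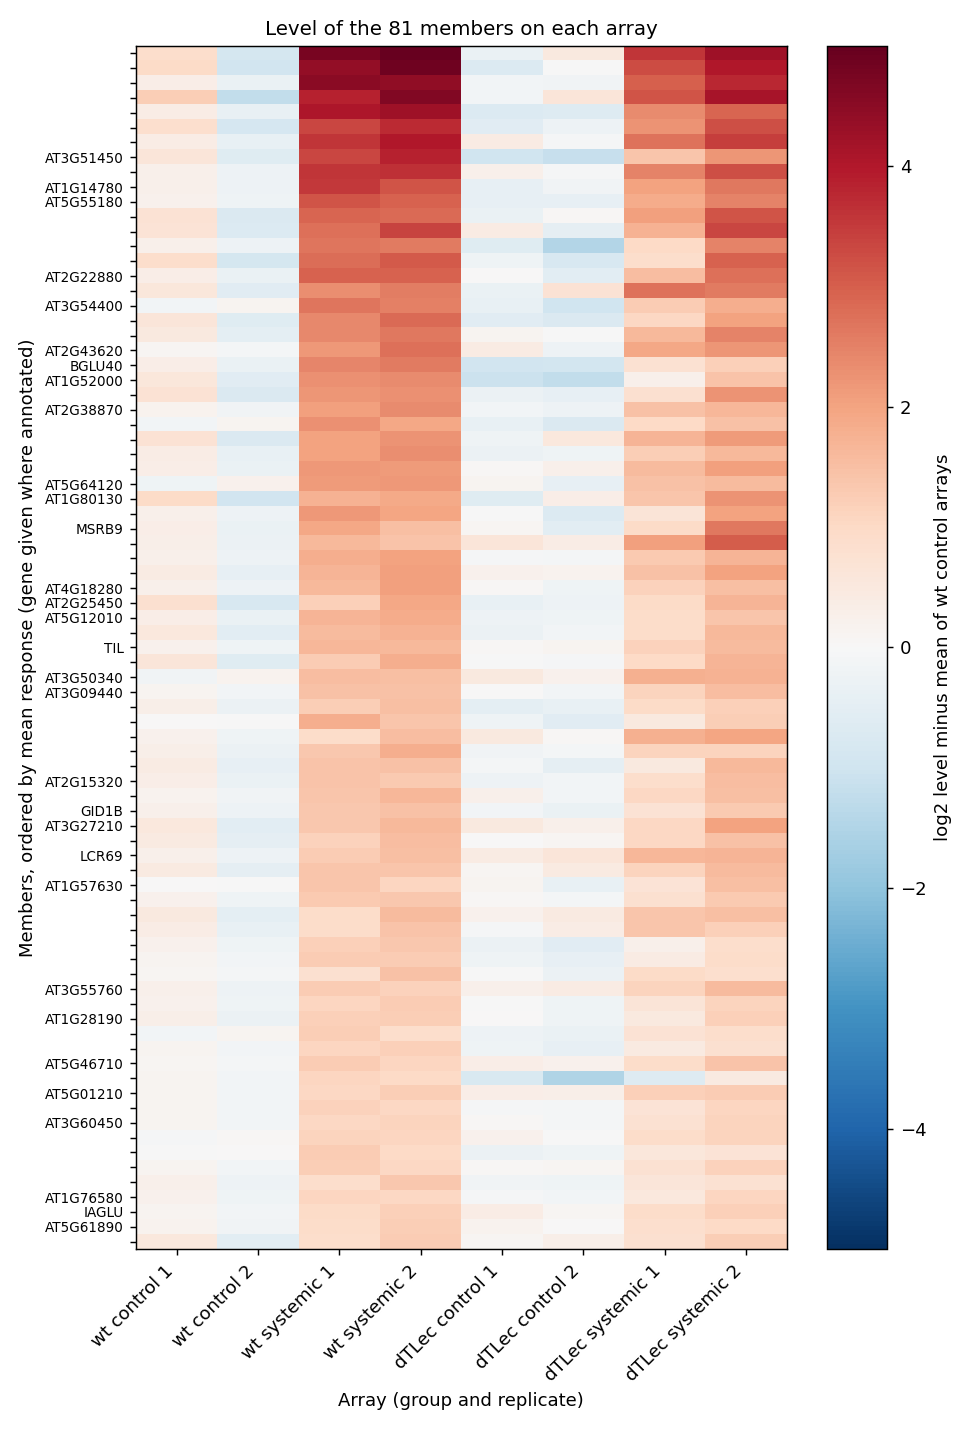
Log2 level of each of the 81 members (rows, ordered by the mean of the wild-type and dTLec differences) on each of the 8 arrays (columns), relative to the mean of the wild-type control arrays. Both systemic arrays of each genotype are high, wild-type control replicate 1 is above replicate 2 in 74 rows, and dTLec systemic replicate 2 is above replicate 1 in 77 rows.

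Membership depended on these arrays. With all arrays 81 probe sets met the rule. Without wild-type control replicate 1 the number was 37, of which 24 were among the 81, and when dTLec systemic replicate 2 was left out it was 25, of which 23 were. Without dTLec systemic replicate 1 it was 160, including all 81. Leaving out any other array gave between 63 and 107, of which between 57 and 70 were among the 81. Only 8 of the 81 met the rule in every one of the 8 omissions, and 3 of those 8 have a gene name, AT3G50340, AT3G09440 and AT2G15320. Near the kept share of 75%, BGLU40 (75.7%) and AT5G61890 (75.8%) lay just inside, and APK1A (74.9%) and AT1G05340 (just under 75%) just outside. Near the wild-type difference of 1, the unannotated probe set 253485_at (1.03) and AT1G76580 (1.04) lay just inside, and 252214_at (1.00, rounded up) and AT3G48570 (0.99) just outside.

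**Figure D3:**
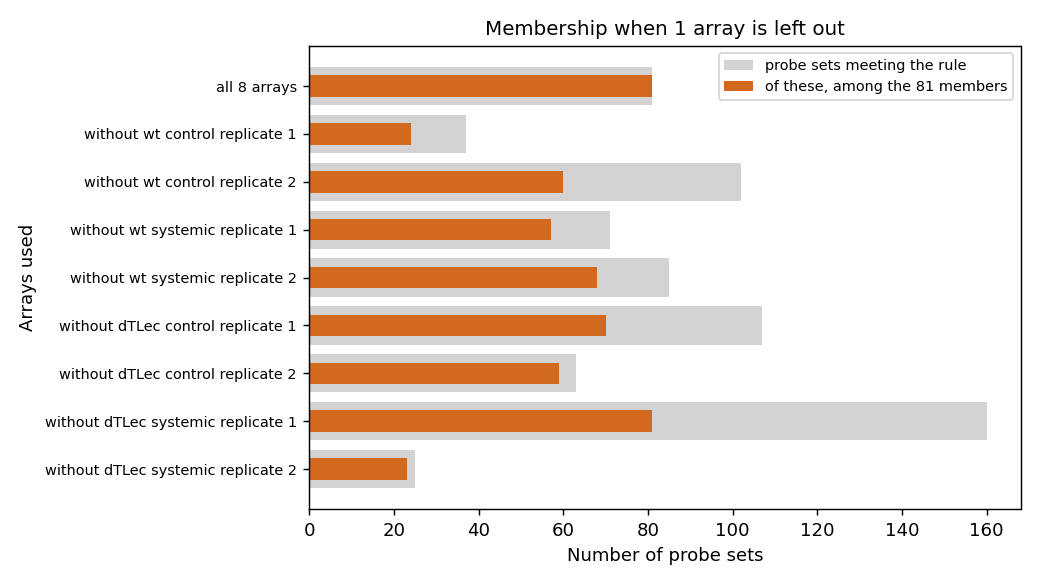
Number of probe sets meeting the rule with all 8 arrays and with each array left out (grey), and how many of them are among the 81 members (brown-orange). The number is lowest, 25, with dTLec systemic replicate 2 left out, and 37 with wild-type control replicate 1 left out. It reaches 160 with dTLec systemic replicate 1 left out.

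Knowledge of their proteins places 25 of the 31 annotated members in 5 groups. The groups were drawn up after the members were known, so their counts describe and test nothing.

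The 8 members that act in defence or proteolysis had wild-type differences between 1.23 and 3.35 and dTLec differences between 1.16 and 2.61. AT1G14780, which encodes a protein with a membrane attack complex/perforin domain, had the largest mean difference of the 8. It read 5.56 and 5.09 in wild-type control, 8.87 and 8.49 in wild-type systemic, 4.92 and 5.15 in dTLec control, and 7.34 and 7.96 in dTLec systemic leaves. Both dTLec systemic arrays were thus far above every control array and below both wild-type systemic arrays, and the differences were 3.35 ± 0.25 in the wild type and 2.61 ± 0.25 in dTLec (log2 ± SE, n = 2 arrays per group). Here and below the SE is from limma and rests on 1 spread shared by all groups, so it is the same in both genotypes by construction. AT3G54400, an aspartyl protease family gene, read 6.94 and 7.20, then 9.75 and 9.57, in wild-type control and systemic leaves, and 6.70 and 6.06, then 8.33 and 8.90, in dTLec. Every dTLec array was below both wild-type arrays of the same leaf type, and the differences were 2.59 ± 0.25 and 2.24 ± 0.25.

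AT2G43620, a chitinase family gene, gave 4.77 and 4.56 in wild-type control leaves and 6.84 and 7.41 in systemic leaves. In dTLec it gave 5.06 and 4.42, and 6.61 and 6.89, so the genotypes overlapped in both leaf types. Its differences were 2.45 ± 0.26 and 2.01 ± 0.26. AT1G52000, a jacalin-related lectin gene, read 8.17 and 7.05 against 9.90 and 9.97 in the wild type and 6.52 and 6.40 against 7.87 and 9.04 in dTLec. One dTLec systemic array thus lay below wild-type control replicate 1, and the kept share was 86.0%. AT2G38870 encodes a protease inhibitor of the potato inhibitor I type. It read 8.91 and 8.53 in wild-type control, 10.78 and 11.06 in wild-type systemic, 8.59 and 8.46 in dTLec control, and 10.17 and 10.39 in dTLec systemic leaves. Its arrays were close within each group, and it was 4.60-fold and 3.38-fold higher in systemic leaves of the wild type and of dTLec.

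LCR69, the plant defensin PDF2.2 and the one member found in the gene lists drawn up for this tissue, was among the few read higher in dTLec. It gave 8.46 and 7.98 in wild-type control and 8.64 and 8.84 in dTLec control leaves, then 9.50 and 9.73 and 9.88 and 9.93 in the systemic leaves. The dTLec arrays were above both wild-type arrays of the same leaf type, and the differences were 1.39 ± 0.16 and 1.16 ± 0.16. AT1G57630, encoding a protein with a TIR domain as found in plant immune receptors, was 2.34-fold and 2.30-fold higher in the systemic leaves of the wild type and of dTLec. AT2G15320, a leucine-rich repeat protein gene, read 6.84 and 6.18 against 7.94 and 7.82 in the wild type and 6.27 and 6.37 against 7.39 and 8.06 in dTLec. Its kept share was 102%, and it met the rule whichever array was left out.

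**Figure D4:**
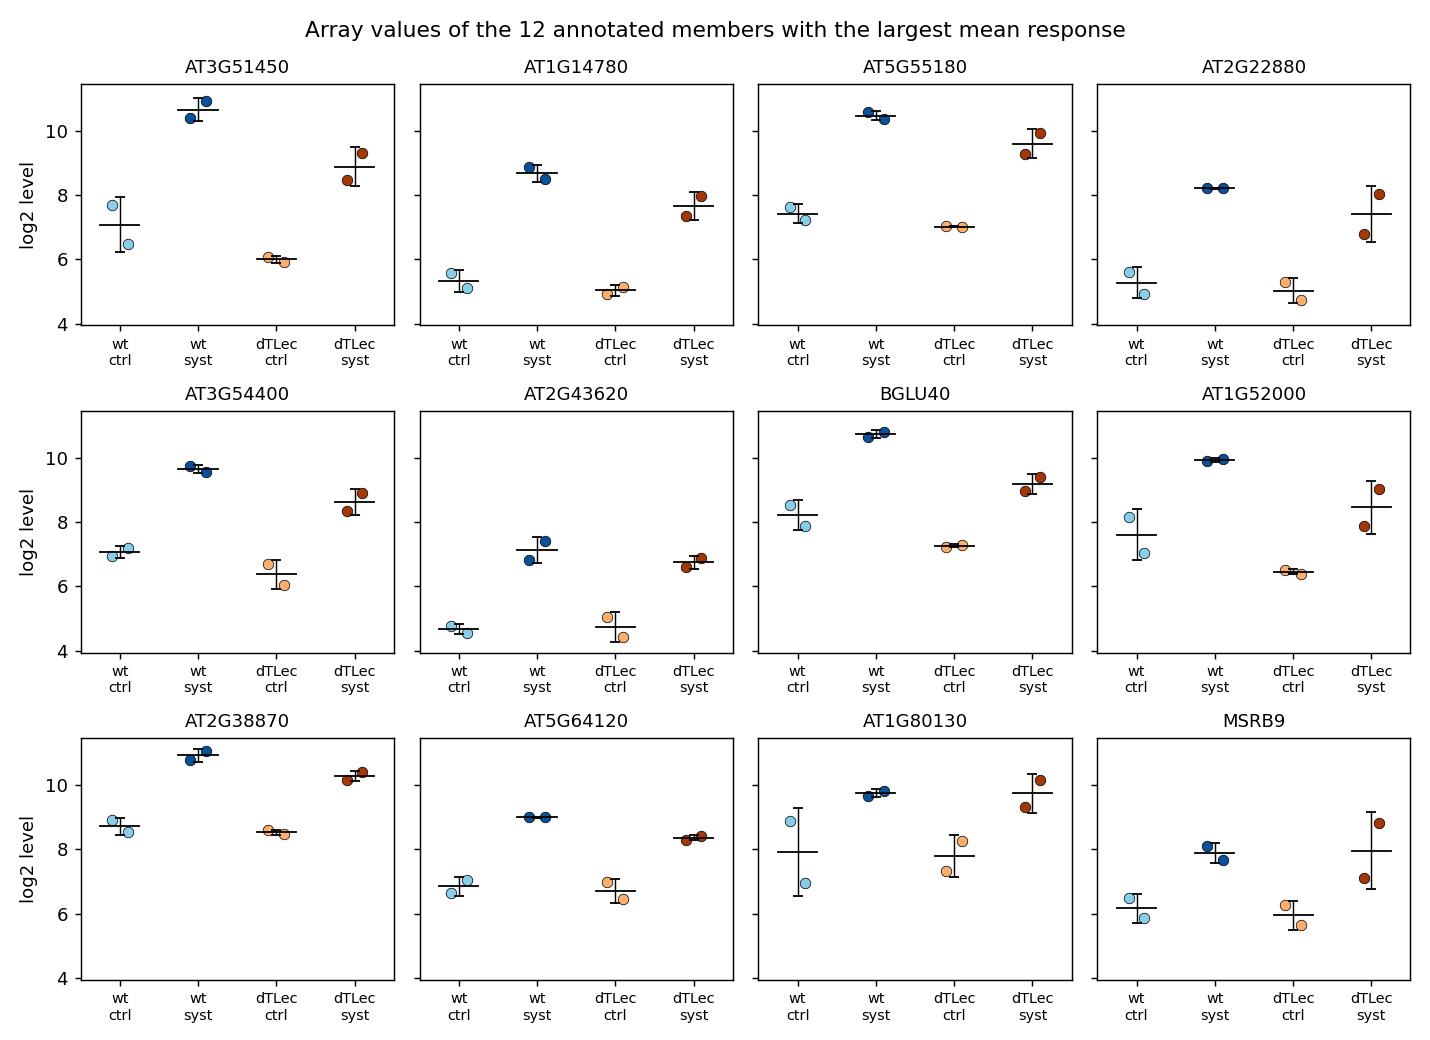
Log2 level on each array (points) with the mean (line) and SD (bar, n = 2) for the 12 annotated members with the largest mean of the wild-type and dTLec differences. In AT3G51450, AT5G55180, AT3G54400, BGLU40 and AT1G52000 the dTLec points lie below the wild-type points of the same leaf type, while in AT2G43620 and AT1G80130 they overlap.

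The 4 members with roles in stress protection or redox balance had wild-type differences between 1.47 and 2.15. TIL, temperature-induced lipocalin, protects membranes against heat, freezing and lipid peroxidation. It gave 10.85 and 10.41 in wild-type control, 12.31 and 12.27 in wild-type systemic, 10.69 and 10.76 in dTLec control, and 11.80 and 12.20 in dTLec systemic leaves. The dTLec control arrays fell between the wild-type ones, and the differences were 1.66 ± 0.17 and 1.27 ± 0.17. AT3G09440, a cytosolic HSP70 chaperone gene, read 8.45 and 8.16 against 9.77 and 9.78 in the wild type, and 8.32 and 8.17 against 9.42 and 9.85 in dTLec. Its kept share of 94.7% held through every omission of an array, in the sense that it met the rule each time. HSP70 genes are alike, so its probes may also bind related transcripts.

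MSRB9, a methionine sulfoxide reductase that repairs oxidised proteins, had the highest kept share of the annotated members, 118%. It read 6.48 and 5.85 in wild-type control and 8.10 and 7.66 in wild-type systemic leaves, and 6.25 and 5.63, then 7.11 and 8.81, in dTLec. The high share rests on dTLec systemic replicate 2, since replicate 1 was below both wild-type systemic arrays. AT5G64120 encodes peroxidase 71, a secreted peroxidase, and gave 6.64 and 7.05 against 8.99 and 9.00 in the wild type. In dTLec it gave 6.97 and 6.45 against 8.30 and 8.41, a kept share of 76.6% with both dTLec systemic arrays below the wild-type ones.

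Of the 4 members with roles in carbohydrates or the cell wall, AT5G55180, a glycosyl hydrolase family 17 gene, had the largest difference. It read 7.63 and 7.21 in wild-type control, 10.57 and 10.37 in wild-type systemic, 7.02 and 7.00 in dTLec control, and 9.28 and 9.92 in dTLec systemic leaves. The dTLec arrays were again the lower in both leaf types, with differences of 3.05 ± 0.22 and 2.59 ± 0.22. BGLU40 (AT1G26560), a β-glucosidase, read 8.55 and 7.88 against 10.65 and 10.82 in the wild type and 7.24 and 7.30 against 8.97 and 9.39 in dTLec. All 4 dTLec arrays were below the wild-type arrays of the same leaf type. AT4G18280, related to glycine-rich cell wall proteins, had differences of 1.82 ± 0.23 and 1.41 ± 0.23. AT3G55760, the starch granule protein LESV, was 2.29-fold and 2.02-fold higher.

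The 5 members in specialised metabolism and hormones spanned kept shares from 77.4% to 106%. AT3G51450, a strictosidine synthase-like gene, had the largest differences of all annotated members, 3.58 ± 0.42 in the wild type and 2.88 ± 0.42 in dTLec. It read 7.68 and 6.48 in wild-type control, 10.41 and 10.91 in wild-type systemic, 6.08 and 5.93 in dTLec control, and 8.45 and 9.30 in dTLec systemic leaves. Both dTLec groups lay below the wild-type group of the same leaf type. AT2G25450 encodes the dioxygenase GSL-OH, which hydroxylates the side chain of a butenyl glucosinolate. Its arrays gave 9.46 and 7.85 against 9.83 and 10.59 in the wild type, and 8.28 and 8.39 against 9.62 and 10.36 in dTLec. The wild-type control arrays differed by more than wild-type control replicate 1 differed from either systemic array, and the kept share was 106%.

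GID1B (AT3G63010), a gibberellin receptor, read 5.62 and 5.12 against 6.72 and 6.82 in the wild type and 5.25 and 5.03 against 6.07 and 6.69 in dTLec. IAGLU (AT4G15550), which conjugates the auxin indole-3-acetic acid to glucose, had differences of 1.09 ± 0.15 and 0.84 ± 0.15. AT5G01210, an acyltransferase of the HXXXD type, had 1.14 ± 0.11 and 0.91 ± 0.11. IAGLU and AT5G01210 thus lay below the members' lower quartiles, 1.23 in the wild type and 1.07 in dTLec. The 4 dTLec arrays of AT5G01210 (7.66 and 7.63, then 8.52 and 8.59) overlapped the wild-type ones in systemic leaves only.

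The 4 members that regulate transcription were mostly near the threshold of the rule. AT2G22880, encoding a VQ motif protein of the kind that binds WRKY factors, was the exception. It gave 5.61 and 4.93 in wild-type control, 8.20 and 8.22 in wild-type systemic, 5.30 and 4.75 in dTLec control, and 6.80 and 8.02 in dTLec systemic leaves. The wild-type systemic arrays were nearly identical while the dTLec ones were 1.22 apart, and the differences were 2.94 ± 0.40 and 2.39 ± 0.40. AT5G61890, an AP2/ERF family gene, had 1.08 ± 0.15 and 0.82 ± 0.15. AT5G46710, of the PLATZ zinc-binding family, had 1.16 ± 0.18 and 0.90 ± 0.18, and AT1G76580, of the SBP-box family, 1.04 ± 0.21 and 0.90 ± 0.21.

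The other 6 annotated members were not placed in a group. AT1G80130, a tetratricopeptide repeat protein gene, had a kept share of 108%. Its control arrays were far apart, 8.90 and 6.96 in the wild type and 7.32 and 8.24 in dTLec, against systemic values of 9.66 and 9.83 and of 9.32 and 10.16. AT3G50340 read 6.58 and 6.90 against 8.27 and 8.24 in the wild type, and 7.22 and 6.97 against 8.51 and 8.47 in dTLec. It was among the most even of the members, with an SE of 0.13 on both differences, 1.51 and 1.40, and it met the rule whichever array was left out. AT5G12010 (1.78 and 1.39), AT3G27210 (1.48 and 1.14), AT1G28190 (1.21 and 0.95) and AT3G60450, a phosphoglycerate mutase family gene (1.08 and 0.97), completed the list.

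The largest differences belonged to probe sets with no gene name in the annotation. The probe set 248337_at read 7.98 and 6.21 in wild-type control, 11.83 and 12.14 in wild-type systemic, 6.78 and 7.57 in dTLec control, and 10.67 and 11.33 in dTLec systemic leaves, 29.6-fold in the wild type and 14.2-fold in dTLec. The probe set 266743_at had the largest dTLec difference of all probe sets tested, 4.00, against 4.63 in the wild type. Its arrays gave 6.76 and 4.88 against 10.21 and 10.69, and 5.14 and 5.78 against 9.09 and 9.83. The highest kept share, 134%, was that of 254818_at, which read 5.70 and 5.14 against 7.05 and 6.85 in the wild type and 6.02 and 5.78 against 7.45 and 8.44 in dTLec. Both dTLec systemic arrays of that probe set were above both wild-type systemic arrays, and it met the rule whichever array was left out.

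Few genes of the pathways usually followed in wounded leaves could be read by name. The 16 lists drawn up for this tissue (jasmonate synthesis, turnover, signalling and defence, abscisic acid and cold, stress transcription factors, glucosinolates, phenylpropanoids, detoxification, calcium, sugar, amino acids, cell wall, salicylate, ethylene and senescence) held 310 genes, of which 40 were measured by name. One of the 40, LCR69, was a member. LTI30, also among the 40, met the value conditions (4.35 in the wild type, kept share 85.9%) and is left out by name only. In the wild type 7 of the 40 passed as higher and 0 as lower, beside 5.91% of all probe sets called higher, and in dTLec 3 passed as higher and 0 as lower, beside 0.488% (limma adjusted p under 0.05). The jasmonate synthesis, turnover and signalling genes measured were JMT, OPCL1, DGL, MYC3, MYC4 and ORA47, and none of them met the rule. Of the jasmonate- and wound-responsive defence genes, JAL23, PDF1.2, THI2.1, BSMT1 and LCR69 were measured, and LCR69 alone met it.

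The genotypes were then compared over both leaf types, which asks whether the members differed between dTLec and the wild type whatever the leaf. This contrast is the mean of both dTLec groups minus the mean of both wild-type groups. Its error is unrelated to the errors of the differences used by the rule as long as the groups have equal spread. Its value is not free of the rule, since it holds the control-leaf difference plus part of the gap between the dTLec and wild-type responses. A kept share under 100% thus lowers it, so the counts of lower and higher members are partly set by the rule. Over the 81 members its Spearman correlation with the wild-type difference was −0.50. Among the members the spread was not equal. The median SD was 0.38 in wild-type control, 0.15 in wild-type systemic, 0.15 in dTLec control and 0.37 in dTLec systemic leaves. Of the 81 members 5 were lower in dTLec at an adjusted p of 0.05 (limma), 6.17% of the members beside 2.35% of all probe sets called lower. None was higher (0 of 81, beside 1.54% called higher), and at an unadjusted p under 0.05 there were 23 lower and 5 higher, 28.4% and 6.17% of the members beside 11.2% of all probe sets in each direction. With the replicate number as a block, 1 member was lower and 0 higher, beside 0.299% and 0.154% of all probe sets. A shift between replicate numbers was already removed from the values. The fit without the block thus has too many residual degrees of freedom, and its p-values tend to be too small.

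The 3 annotated genes of the 5 were BGLU40, AT3G51450 and AT3G54400. BGLU40 had a log2 difference of −1.25 ± 0.16 (SE, dTLec minus wild type, limma adjusted p 0.0156, and 0.0435 with the block), from −0.94 in control and −1.55 in systemic leaves. AT3G51450 had −1.43 ± 0.30 (limma adjusted p 0.0481, and 0.0891 with the block) and AT3G54400 −0.87 ± 0.18 (0.0469 and 0.0911). The other 2 were the unannotated probe sets 264436_at (−1.07 ± 0.18, limma adjusted p 0.0306, and 0.0697 with the block) and 254242_at (−0.39 ± 0.07, limma adjusted p 0.0411, and 0.108 with the block). AT1G52000, the jacalin-related lectin, had −1.31 ± 0.31 but an adjusted p of 0.0647, and AT5G55180 had −0.64 ± 0.16 with 0.0708 (limma). LCR69 had the highest value of the annotated members, 0.40 ± 0.12, with an adjusted p of 0.102 (limma).

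The count of 5 changed with single arrays, as did the calls over all 22746 probe sets (885 with all arrays). It was 0 without wild-type systemic replicate 1, wild-type systemic replicate 2, dTLec control replicate 2 or dTLec systemic replicate 1 (limma), where 82, 4, 5 and 68 of all probe sets were called. At an unadjusted p under 0.05, 23, 18, 16 and 17 members were lower in these 4 fits, beside 10.1%, 7.95%, 8.1% and 9.89% of all probe sets. The log2 difference of BGLU40 in the same fits was −1.29, −1.21, −1.26 and −1.14, against −1.25 with all arrays. It was 2 without dTLec control replicate 1, 9 without dTLec systemic replicate 2. With wild-type control replicate 2 left out it was 11. When wild-type control replicate 1 was left out, LCR69 passed as higher (0.52, limma adjusted p 0.037).

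**Figure D5:**
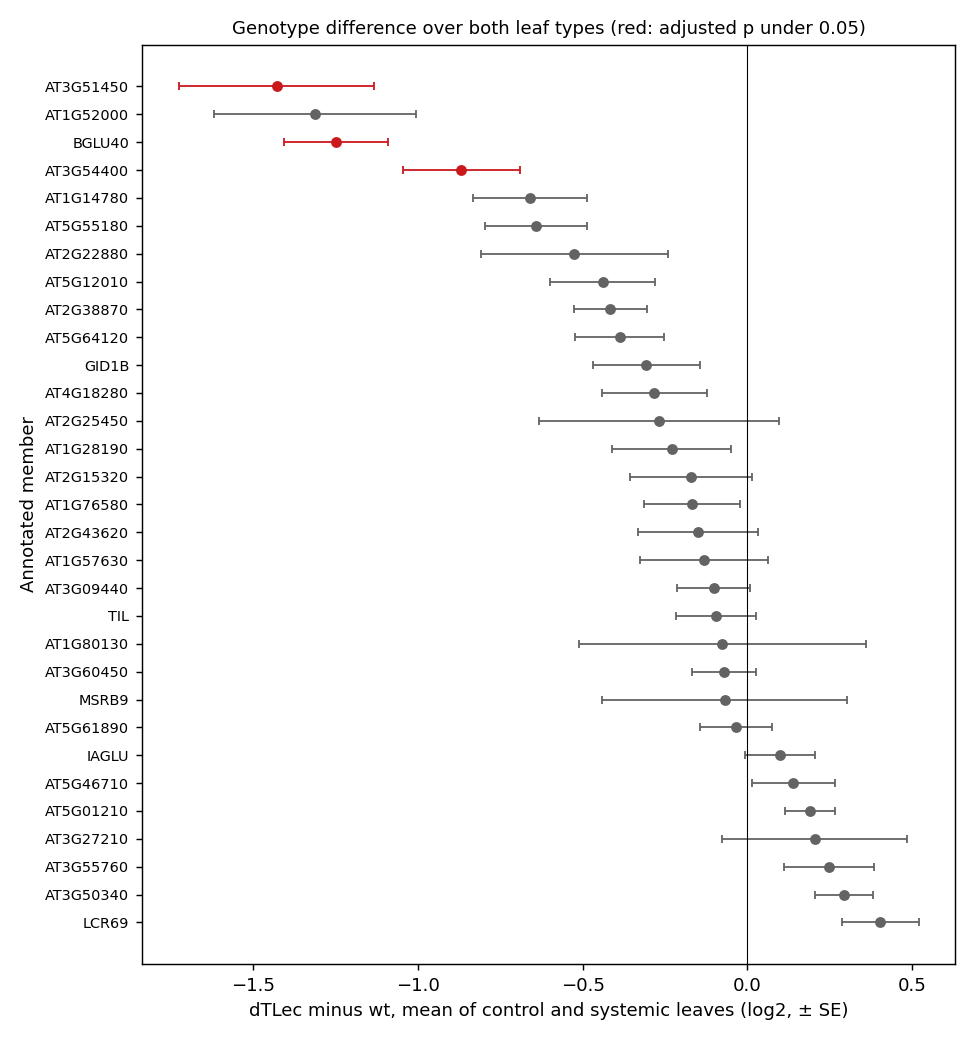
Log2 difference between dTLec and wild type, averaged over control and systemic leaves, for the 31 annotated members (points, with SE). BGLU40, AT3G51450 and AT3G54400, drawn in red, have an adjusted p under 0.05 in limma without the replicate block. With the block only BGLU40 does. LCR69 has the highest value, 0.40.

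The sign of this genotype difference was below 0 in 65 of the 81 members (80.2%), beside 44.2% of all probe sets. The median was −0.26 in the members and 0.02 over all probe sets. Among the other wild-type-raised probe sets, 94.0% of the 350 between kept and mostly lost were below 0. So were 89.7% of the 58 mostly lost, and a lean below 0 was thus not particular to the members. The members' median was −0.09 when wild-type control replicate 1 was dropped and −0.08 when dTLec systemic replicate 1 was. It was −0.43 with wild-type control replicate 2 left out and −0.41 with dTLec systemic replicate 2 left out. In control leaves alone the members' median was −0.12, beside 0.01 over all probe sets, and 52 of 81 were lower in dTLec. In systemic leaves alone the members' median was −0.37, beside 0.03 over all probe sets, and 69 were lower. Both control groups enter the kept share. A lower dTLec control or a higher wild-type control value raises it, so the control-leaf count is also partly set by the rule. For each member the systemic value is the control value plus the difference between its dTLec and wild-type responses, and that difference was below 0 in the 70 members with a kept share under 100%. The mean over both leaf types holds part of that difference, so its sign count is also partly set by the rule.

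The other wild-type-raised probe sets are set beside the members here, by class of kept share, as a description. In control leaves alone the median was −0.12 in the members. It was −0.03 at kept shares between 25% and 75% and 0.04 at less than 25%. The median genotype difference over both leaf types was −0.43 in the 350 probe sets with kept shares between 25% and 75%, and −0.57 in the 58 with less than 25%. Of these, 20.9% and 48.3% passed as lower in dTLec (limma, beside 2.35% of all probe sets). This genotype difference holds part of the lost response, so a lower kept share lowers it by construction. The classes were cut by kept share from the same arrays, so nothing is read from their order or from these shares. Their wild-type differences had medians of 1.58 in the members, 1.57 in the middle class and 1.38 in the mostly lost class, with upper quartiles of 2.45, 2.09 and 1.69. The rule used these values, so nothing is read from them. The array differences also changed with the class. Wild-type control replicate 1 was above replicate 2 in 91.4% of the members, 88.6% of the middle class and 69.0% of the mostly lost class. The part of these array differences in the kept share was not tested.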

How the data were processed

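The authors deposited a normalized log2 expression value for each probe set and array. The submitters' processing notes name RMA and Partek, with version and settings not given in the sources used here. The log2 scale was read from the values, which run from 3.24 to 14.28. Arrays have no read depth, and 2 arrays per group limit the precision. Each array had 10 µg of RNA as input, per the labels' protocols.

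Of 22810 rows, 64 array controls were left out. Genes were named through the platform annotation, updated with the TAIR10.1 gene table (13513 probe sets with 1 gene, 503 with several, 8730 with none, and 13436 found in the table). No coordinates are given, since no build is named for the values.

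All 8 arrays entered a limma 3.58.1 model (lmFit, eBayes, R 4.3.3) with a mean for each group, two-sided, with Benjamini-Hochberg adjustment over 22746 probe sets. Averaged over the 4 groups, the replicate numbers differed by at most 7.5e-05 at any probe set, so a shift between replicate numbers was already removed. The 4 residual degrees of freedom are therefore too many, and the block, with 3, takes this into account. Replicate 1 deviations correlated between −0.58 and −0.13 across the 6 pairs of groups. Such correlations are forced below 0 on average by the equal means, so they do not show whether the numbers pair the samples, and the labels do not say. On simulated arrays the genotype contrast recovered 88.1% of 67 probe sets changed by 0.5 (log2) and 100% of 67 changed by 1, with 9 false calls among 22746 probe sets. The simulated arrays had equal spread in all groups, no leaf-type difference and no replicate shift removed. The deposited arrays differ in each of these, so the rates may not hold for them.

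The members and lists were chosen with earlier results of these data known. The rule for named genes took 21 of the 31 annotated members: the largest mean differences, the highest and lowest kept shares, the smallest p of the genotype contrast, list members, those nearest the thresholds, and the brightest and dimmest. The other 10 were added after their values were seen, to account for every annotated member, as were the probe sets named by ID.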

Additional observations from a re-analysis of the deposited data

How the results depend on the processing

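Membership was 80 after centring each array on its median (79 shared with the 81), 89 after cyclic loess (all 81 shared) and 73 among probe sets brighter than the median, and it ran from 25 to 160 with single arrays left out. A kept share of at least 50% gave 263 members and one of at least 100% gave 11. A wild-type difference of at least 0.5 gave 201 and one of at least 2 gave 31. The 5 members lower in dTLec over both leaf types (beside 2.35% of all probe sets) became 1 with the replicate block (0.299%). After cyclic loess they were 3 (beside 2.49%), and among brighter probe sets 8 (beside 4.44% of these). The count also changed with single arrays left out. The 0 members higher (limma, 5 at an unadjusted p under 0.05) ran from 0 to 1 with single arrays left out. All probe sets called in this contrast numbered 885, and 103 with the replicate block, and from 4 to 779 with single arrays left out. The cause of these changes was not tested. No named member's difference changed sign in the wild-type or dTLec comparison under the alternatives run. Over the named members and alternatives, the side of the threshold in the genotype contrast was lost in 20 cases and gained in 8 of 401, and the lost calls were those of AT3G51450, AT3G54400 and BGLU40.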
